A study of Mus musculus with 16 samples.

Results

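A set of 807 Meis1 binding regions was called in both vehicle-treated heart libraries and in neither library from hearts treated with paromomycin and neomycin (Paro/Neo). They were chosen by merging the peaks of the 4 Meis1 lists that shared at least 1 bp on chromosomes 1 to 19, X and Y, and by keeping the regions with a peak in both vehicle lists and no peak in either Paro/Neo list. The members make up 15.9% of all 5069 merged Meis1 regions and 39.7% of the 2033 regions called in both vehicle libraries (vehicle-shared regions). The other 1226 vehicle-shared regions, called retained here, held a peak in 1 (616 regions) or both (610 regions) Paro/Neo lists. Because presence and absence of peaks chose the members, their absence after Paro/Neo is a description and carries no test.

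The libraries came from chromatin immunoprecipitation and sequencing (ChIP-seq) on ventricles of mice taken at postnatal day 15. From postnatal day 7, mice were injected for 7 days with phosphate-buffered saline as vehicle or with the aminoglycoside antibiotics paromomycin and neomycin together, at 150 mg/kg 2 times a day into the peritoneum. Each antibody, one against Meis1/2 and one against Hoxb13, gave 2 vehicle and 2 Paro/Neo libraries. The labels give no strain or sex. Whole ventricles went into every library, and since the antibody is named for Meis1/2, peaks of Meis1 and Meis2 cannot be told apart. The labels describe 2 hearts per sample as duplicates, which can mean a pool or separate hearts, so a spread between libraries may be technical.

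Meis1 is a homeodomain transcription factor of the TALE class. Meis proteins bind DNA around a short TGACAG core and often act with Pbx and Hox proteins. In the heart, Meis1 and its partner Hoxb13 are known for roles in the exit of cardiomyocytes from the cell cycle after birth. A ChIP-seq peak marks a stretch of DNA recovered more often than its surroundings, and its fold is that enrichment as given by the authors' peak caller.

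For Meis1 replicate 2, the labels and the naming of the deposited lists disagree on which list is vehicle, and groups follow the labels here. With these lists exchanged between the groups, the same rule kept 34 regions. None of them can be a member, since the exchanged rule asks for a peak in a list where members have none. The reverse rule (both Paro/Neo, neither vehicle) then kept 82, against 15 with the labels followed. The Meis1 lists were unequal, with 3529 peaks for vehicle replicate 1, 3176 for vehicle replicate 2, 1541 for Paro/Neo replicate 1 and 1025 for Paro/Neo replicate 2. Sequencing depth is unknown, so a region without a peak cannot be separated from a region below detection in that library.

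Promoter sequences are shown for 8 members that touch the window around a listed gene start, chosen to show where the Meis core lies in relation to the region. They come from RefSeq windows of build GRCm38.p6, whose coordinates are those of mm10, and run 5′ to 3′ on the gene's strand. Capitals mark TGACAG, or CTGTCA where it is read on the opposite strand. At Hes6 (chr1:91414050-91414288, minus strand), Phf13 (chr4:151996251-151996429, minus strand) and Cdk8 (chr5:146231000-146231194, plus strand) the bases shown are the parts of the windows inside the regions.
Hes6 promoter: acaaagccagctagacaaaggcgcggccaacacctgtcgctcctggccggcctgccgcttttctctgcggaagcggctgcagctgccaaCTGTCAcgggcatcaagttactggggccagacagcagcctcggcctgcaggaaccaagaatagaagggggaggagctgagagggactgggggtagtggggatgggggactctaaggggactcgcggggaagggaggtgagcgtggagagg
Phf13 promoter: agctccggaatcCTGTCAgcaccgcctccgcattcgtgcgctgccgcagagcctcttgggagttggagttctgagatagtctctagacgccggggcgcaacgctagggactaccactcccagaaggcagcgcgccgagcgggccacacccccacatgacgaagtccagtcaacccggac
Cdk8 promoter: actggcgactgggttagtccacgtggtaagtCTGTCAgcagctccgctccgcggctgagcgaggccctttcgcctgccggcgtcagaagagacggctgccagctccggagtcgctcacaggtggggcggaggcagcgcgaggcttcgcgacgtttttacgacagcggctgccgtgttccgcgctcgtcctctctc
At Fsd2 (chr7:81566982-81567200, minus strand), Pfkl (chr10:78009808-78009973, minus strand) and Ttn (chr2:76982548-76982797, minus strand) the regions run across the start, and the bases before it are shown.
Fsd2 promoter: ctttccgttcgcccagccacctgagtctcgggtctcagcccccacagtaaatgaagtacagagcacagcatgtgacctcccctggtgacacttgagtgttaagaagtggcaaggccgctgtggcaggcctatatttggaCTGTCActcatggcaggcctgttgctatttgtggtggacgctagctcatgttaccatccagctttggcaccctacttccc
Pfkl promoter: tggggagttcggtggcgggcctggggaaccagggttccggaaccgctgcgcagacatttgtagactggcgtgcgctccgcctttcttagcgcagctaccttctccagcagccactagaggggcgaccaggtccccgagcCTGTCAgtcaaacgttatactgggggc
Ttn promoter: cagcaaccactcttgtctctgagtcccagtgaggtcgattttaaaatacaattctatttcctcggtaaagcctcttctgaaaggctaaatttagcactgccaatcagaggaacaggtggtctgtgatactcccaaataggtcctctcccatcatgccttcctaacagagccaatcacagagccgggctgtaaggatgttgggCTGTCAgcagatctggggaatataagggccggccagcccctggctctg
At Myh6 (chr14:54966608-54966857, minus strand) the region covers the first 134 bases shown. At Tspyl1 (chr10:34281940-34282189, plus strand) the region covers the whole upstream stretch. That stretch holds no TGACAG match but does hold TGATTGA, a sequence searched for further below.
Myh6 promoter: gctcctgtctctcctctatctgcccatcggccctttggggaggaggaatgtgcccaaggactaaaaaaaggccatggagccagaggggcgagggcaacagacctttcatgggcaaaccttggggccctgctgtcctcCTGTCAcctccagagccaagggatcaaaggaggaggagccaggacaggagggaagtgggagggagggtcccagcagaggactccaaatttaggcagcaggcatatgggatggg
Tspyl1 promoter: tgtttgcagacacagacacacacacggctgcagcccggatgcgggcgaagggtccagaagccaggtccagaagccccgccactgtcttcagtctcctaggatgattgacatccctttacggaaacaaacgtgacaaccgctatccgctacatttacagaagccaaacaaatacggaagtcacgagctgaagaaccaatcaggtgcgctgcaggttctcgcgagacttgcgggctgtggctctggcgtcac
The 6 stretches of the first 2 sets each hold 1 copy of the core, all in the CTGTCA orientation, at distances from 238 bases (Phf13) to 27 bases (Pfkl) before the start. At Myh6 the first base of the match lies 4 bases beyond the edge of the region.

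Members were on the whole the weaker of the vehicle regions, with a few strong ones among them. Within each vehicle list, the fold of a peak was expressed as its percentile, 100 being the highest fold. In vehicle replicate 1 the members' folds ran from 2.97 to 9.32 with a median of 4.64, against a median of 6.20 for the retained regions. In vehicle replicate 2 they ran from 2.96 to 10.6 with a median of 4.65, against 6.11. The 2 replicates thus gave the members nearly the same middle value. The mean of a member's percentiles in both lists ran from 2.29 to 94.2 with a median of 45.4, against a median of 75.5 for the retained regions.

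Membership followed this rank closely. When the 2033 vehicle-shared regions were split into 4 classes of mean percentile, members made up 361 of 508 regions (71.1%, 95% exact binomial interval 66.91 to 74.97) in the weakest class, up to a percentile of 42.8. Their share was 270 of 508 (53.1%) in the second class and 154 of 508 (30.3%) in the third. In the strongest class, from a percentile of 81.5 upward, it was 22 of 509 (4.32%, 2.73 to 6.47). The lower a region ranked in the vehicle lists, the more often it lacked a peak in both Paro/Neo lists, and the intervals cover counting error only.

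**Figure D1:**
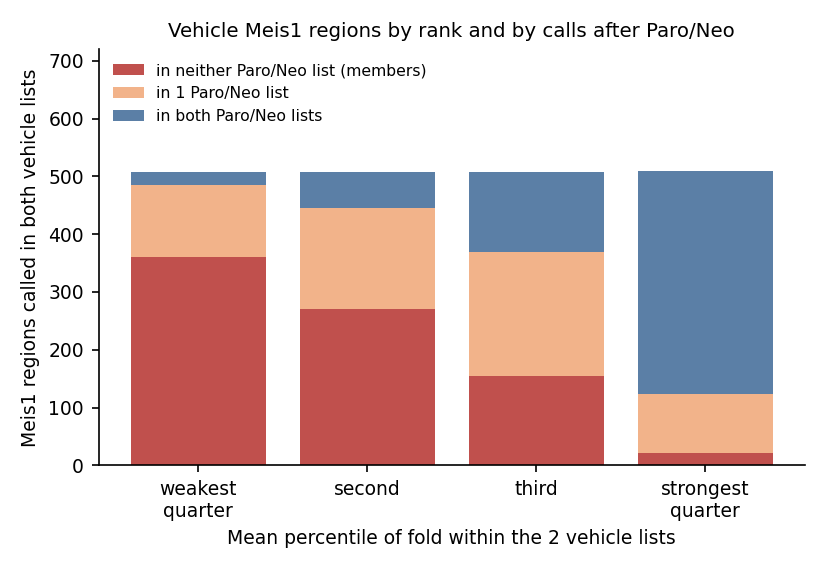
The bars count the vehicle-shared Meis1 regions in 4 classes of mean fold percentile (horizontal axis, weakest to strongest), split by calls in the Paro/Neo lists. The members fall from 361 regions in the weakest class to 22 in the strongest, where 385 regions were called in both Paro/Neo lists.

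The same gradient existed between the vehicle replicates. Vehicle replicate 1 regions were split into 4 equal groups by fold. Of the weakest group, 72.2% had no peak in vehicle replicate 2, 90.6% none in Paro/Neo replicate 1 and 94.9% none in Paro/Neo replicate 2. Of the strongest group, 6.35% were absent from vehicle replicate 2, 25.6% from Paro/Neo replicate 1 and 38.8% from Paro/Neo replicate 2. Starting from vehicle replicate 2, the weakest group was absent from vehicle replicate 1 in 62.7% of regions, and the strongest in 4.16%. Absence from a second vehicle list was thus common among weak peaks, and absence from the shorter Paro/Neo lists was more common at each of these levels.

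The replicates ordered the members loosely. The Spearman correlation between the folds of the 2 vehicle lists was 0.31 over the 807 members and 0.62 over the 1226 retained regions. This is a description across regions that share libraries, without weighting by rank. In vehicle replicate 1 the members' folds spanned 2.97 to 9.32, a narrower range than the 1.32 to 20.0 of the retained regions. Both percentiles were above 50 for 218 members and below 50 for 292. At a −log10 q of at least 2 in both vehicle lists, 695 members remained. Only 62 members lay among the 1025 highest folds of both vehicle lists, the length of the shortest Meis1 list, and 546 lay among them in neither. Members were also narrow: their peaks had median widths of 240 and 242 bp in vehicle replicates 1 and 2, against 298 and 295 bp for retained regions, and in each rank class of vehicle replicate 1 the members' median was the smaller one (239 against 247 bp in the weakest class, 268 against 318 bp in the strongest).

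**Figure D2:**
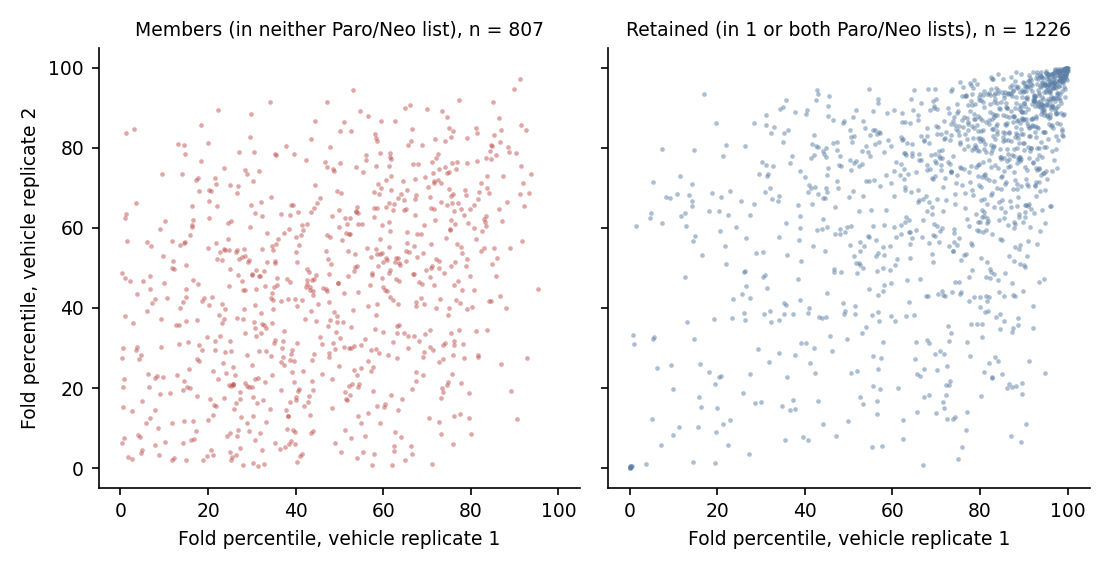
Each point is a vehicle-shared Meis1 region, placed by its fold percentile in vehicle replicate 1 (horizontal) and replicate 2 (vertical). The 807 members spread over the plane (Spearman correlation 0.31), while the 1226 retained regions gather in the upper right corner (Spearman correlation 0.62). Neither correlation is weighted by rank.

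Around the limits of the rule, some members lay close to a Paro/Neo peak without touching it. A member inside Srrm4, a splicing factor gene, was 790 bp from the nearest Paro/Neo peak, and a member inside Abcc9, a subunit of the ATP-sensitive potassium channel, was 804 bp away. Members outside Ephb3 and Foxo6 followed at 955 and 1042 bp. In all, 3 members lay within 1 kb of a Paro/Neo peak, 34 within 5 kb and 172 within 50 kb, and the median distance was 237 kb. Just outside the rule stood vehicle-shared regions with the lowest folds in the single Paro/Neo list that held them. Both of the lowest lay over 1000 kb from Lrrc4c with Paro/Neo replicate 2 folds of 1.52 and 1.54, and the next were near Pex2 (1.97) and Rimbp3 (2.69). Their vehicle folds, from 1.32 to 2.62, were all below the lowest member's, and the first 3 held a peak in all 4 Hoxb13 lists.

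The strongest members lay near genes of varied function. The highest-ranked one stood 85.7 kb outside Btg1, an antiproliferation factor gene (chr10:96708470-96708805), with a fold of 7.89 in vehicle replicate 1 and 10.6 in replicate 2. The next lay inside Diaph2, a formin that builds actin filaments (chrX:129800004-129800308), with folds of 7.54 and 8.999. Inside Plekhh1 (chr12:79055375-79055663) the folds were 8.27 and 6.90. These 3 regions ranked at mean percentiles of 94.2, 92.2 and 88.6, in the strongest class, and each was high in both vehicle lists, the lowest percentile being 84.6.

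The member 60.7 kb from Lonrf1, a RING finger protein gene, had folds of 7.92 and 7.06. Just 12 bp outside Hes6, which encodes a helix-loop-helix factor of the Hes family, the region chr1:91414050-91414401 reached 6.81 and 8.11. Gnptab, whose enzyme tags proteins for the lysosome, held a member inside the gene at 7.06 and 6.89. Further members of high rank lay 12.8 kb outside Hrh2 (histamine H2 receptor), 159 kb outside Mast4 (a kinase), inside Arhgef3 (a guanine nucleotide exchange factor), inside the gene model Gm38469 and 17.5 kb outside Sltm (an RNA-binding protein), with mean percentiles from 84.0 to 84.7.

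Most genes held a single member. With the gene body and 5 kb on both sides, 492 of the 807 members lay at 532 of 21887 protein-coding genes (2.43%), some of them at neighbouring genes at once. Of the 1173 genes with any vehicle-shared region, 45.4% held a member. Members were the only vehicle-shared regions at 452 of the 532 genes, and 80 genes held a retained region as well. At least 2 members were found at 19 genes. Gfod1 held the most, with 3 members at mean percentiles of 15.1, 32.5 and 45.0. Among the genes with 2 members were Per2 (a core repressor of the circadian clock), Zbtb20 (a zinc finger repressor), Htra1 (a secreted protease), Synpo (an actin-binding protein) and Arhgef3, and all vehicle-shared regions at these genes were members. The stronger of the Per2 regions is the one at Hes6, since both genes lie within 5 kb of it.

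In position relative to genes, members resembled retained regions of like rank. For such comparisons the retained regions were averaged over the 4 rank classes with the members' class sizes as weights. Members lay inside a gene body in 425 cases (52.7%, 49.2 to 56.2), against 53.3% of like-rank retained regions. Within 1 kb of a gene end lay 100 members (12.4%, 10.2 to 14.9), against 11.1%, a difference of 1.31 percentage points that turned to −1.89 without Paro/Neo replicate 1 and rose to 3.78 without Paro/Neo replicate 2. More than 5 kb outside any protein-coding gene lay 315 members (39.0%) against 39.3%, and more than 50 kb outside lay 167 (20.7%) against 21.8%. The like-rank values were inside the members' intervals for all 4 measures. Another vehicle-shared region lay within 50 kb of 175 members (21.7%, 18.9 to 24.7), against 24.5% at like rank. Among the 382 members outside genes, the median distance was 35.2 kb and the longest 1521 kb.

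Relative to transcription starts, 103 of the 780 members off chromosome 18, for which no starts were listed, had a start within 1 kb (13.2%, 10.9 to 15.8), against 12.8% at like rank. The centre was upstream of the start in 68 of the 103, with a median of −110 bp. Among retained regions of any rank with a start within 1 kb, it was upstream in 70 of 122. Further high-ranked gene-end members were at Phf13 (a PHD finger protein), the gene model 4930404N11Rik, Spag7, Fsd2, Cdk8 (a Mediator kinase) and Tspyl1. Their folds ran from 5.45 (Fsd2) to 6.60 (Phf13) in vehicle replicate 1 and from 5.85 (Cdk8) to 6.96 (4930404N11Rik) in replicate 2. The Spag7 region lay within 5 kb of Eno3 too.

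The Meis core was common in the promoters that members touched. TGACAG, searched on both strands, was found in 38 of 74 promoter windows of 300 bases (250 before to 50 after the start) touched by a member, or 51.4% (39.4 to 63.1). Of all 32851 windows in the table, 19.2% held it, and so did 13.8% (12.6 to 15.0) of the 3340 windows with a Hoxb13 peak in vehicle replicate 1 and no Meis1 peak. Retained regions touched windows with the core in 56 of 94 cases (59.6%, 49.0 to 69.6), and in 51.1% at like rank. The members' share was thus above that of all promoters and level with that of retained regions of like rank. Base composition differed as well: the G and C content was 58.2% in the members' windows, 53.8% over all windows and 65.5% in the windows with a Hoxb13 peak alone.

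Within the members' windows the matches lay mostly inside the region. The part inside held 37 matches, or 2.59 per kb, and the part outside held 6, or 0.757 per kb. For retained regions these densities were 3.22 and 0.706 per kb. The Phf13, Hes6 and Pfkl stretches printed above are examples of a match inside, and Myh6 is one of a match outside. The 37 higher-ranked members of the 74 held the core in 19 windows, as did the 37 lower-ranked ones (51.4% in each). The longer TGACAGG, which overlaps the core, was found in 15 of 74 windows (20.3%, 11.8 to 31.2) against 30.9% (21.7 to 41.2) of the windows touched by retained regions of any rank and 5.53% of all windows. The alternative sequence TGATTGA, a binding sequence described for Pbx proteins, was found in 5 of 74 (6.76%, 2.23 to 15.1), against 18.1% (10.9 to 27.4) for retained regions and 2.70% of all windows. Both sequences were thus less frequent at members than at retained regions in 1 or both Paro/Neo lists, with overlapping intervals and without weighting by rank. For TGATTGA the retained share came from regions in 1 Paro/Neo list, with 17 of 54 windows (31.5%, 19.5 to 45.6). Regions in both lists held it in 0 of 40 windows (interval 0 to 8.81%), below the members' share with overlapping intervals. TGACAGG was found in 27.8% of windows for regions in 1 list and in 35.0% for regions in both. A match is a stretch of letters and not proof of a site.

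**Figure D3:**
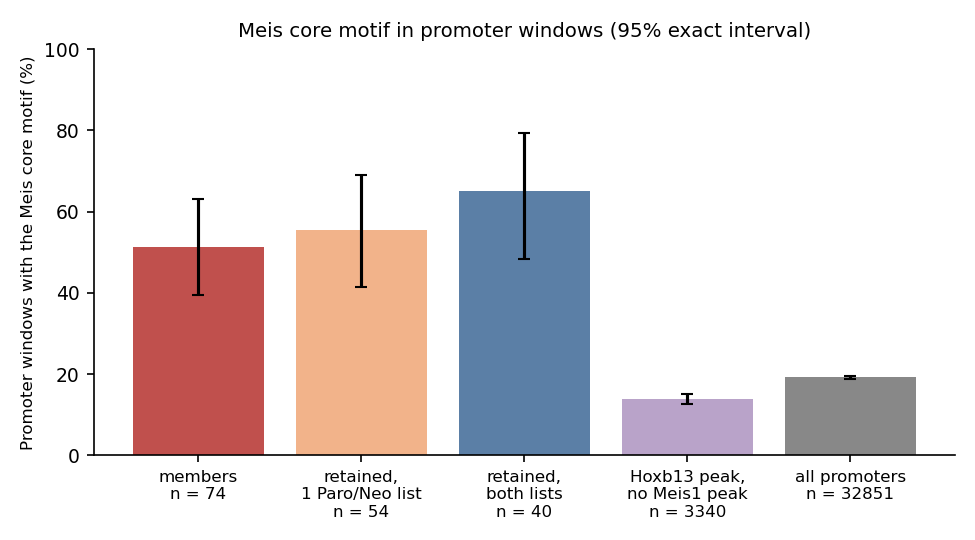
Bars give the percentage of promoter windows that hold TGACAG on either strand, with 95% exact binomial intervals, for windows touched by members, by retained regions, by a Hoxb13 peak without a Meis1 peak, and for all windows. The members' 51.4% overlaps the intervals of both retained groups and lies above the 19.2% of all windows.

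Functions were described with 33 gene lists of 679 distinct genes, and a region counted for a list when it lay within 5 kb of one of its genes. For each list, the number of members was set beside the number that the rank classes would give, the sum of the members' shares in the classes of the list's regions. In all, 48 of the 679 genes held a member, and of all 21887 protein-coding genes 532 did (2.43%). Both counts depend on how many genes held any vehicle-shared region, and of all 1173 genes with one 45.4% held a member. They therefore show no enrichment of members at the listed genes. The lists were chosen with earlier results of these data known, so these shares are a description only. The count was above the like-rank number in 12 lists and below it in 15, and 6 lists held no vehicle-shared region. With counts this small, no list is called particular to the members.

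Genes of energy metabolism held more members than the like-rank number, on few regions. In the list of fatty acid use, 4 of 5 vehicle-shared regions were members, against 2.30 by rank. The strongest lay inside Ppargc1a, the coactivator that drives mitochondrial biogenesis (chr5:51591482-51591751), with folds of 8.49 and 5.47 in vehicle replicates 1 and 2. Inside Lpl, which releases fatty acids from lipoproteins, the folds were 5.47 and 4.53. A region 212 bp outside Ppara, the fatty acid-sensing nuclear receptor, reached 4.32 and 4.13. Inside Cd36, a fatty acid transporter gene, they were 4.14 and 3.87. Ranks thus ran from a mean percentile of 24.0 at Cd36 to 81.0 at Ppargc1a.

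Of the 4 vehicle-shared regions at genes of glycolysis and glucose uptake, 3 were members, against 1.18 by rank. The region across the start of Pfkl, liver phosphofructokinase, was far from even between the replicates, with folds of 4.62 and 8.06. The region 1.39 kb outside Eno3, the muscle enolase (chr11:70663907-70664175), had folds of 6.36 and 5.997. Inside Pkm, pyruvate kinase, they were 3.64 and 5.77. The retained region, in both Paro/Neo lists, was at Egln3, an oxygen-sensing hydroxylase gene. Each Meis1 library was left out in turn. The fatty acid count (4 to 10) and the glycolysis count (3 to 7) then stayed above their like-rank numbers. All 807 members stay in each of these settings, so the same regions were counted again and this is no independent support. The highest counts were 10 fatty acid regions against 7.08 without vehicle replicate 1 and 7 glycolysis regions against 5.13 without vehicle replicate 2. With only the nearest gene counted, fatty acid use held 5 members of 8 regions, against 3.44, and glycolysis 2 of 5, against 1.45. The mitochondrial dynamics list held a single vehicle-shared region, the member 4.84 kb from Mfn2. Its centre lay 90 bp from the start of another gene, Miip. The only region of the respiratory chain list, at Cox7a1, was retained.

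Of 13 regions at sarcomere genes, 6 were members, against 4.89 by rank, 6 were called in 1 Paro/Neo list and 1 in both. The strongest member lay inside Tnnt2, cardiac troponin T (chr1:135848052-135848367), with folds of 6.64 and 5.73; 2 further Tnnt2 regions were retained in 1 Paro/Neo list each. Inside Nebl, a thin filament protein, the folds were 5.11 and 5.93. The region at the Myh6 start, also within 5 kb of Myh7, had folds of 5.06 and 4.64 (alpha and beta myosin heavy chain). The others lay at Synpo2l (mean percentile 45.6), Ldb3 (41.4) and Ttn (35.2), the last across the start of titin. The sarcomere count moved with the libraries used: it was 8 against 7.96 without vehicle replicate 1, 13 against 11.7 without vehicle replicate 2, 11 against 7.91 without Paro/Neo replicate 1 and 7 against 6.03 without Paro/Neo replicate 2.

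Genes of calcium handling held fewer members than the like-rank number. Calcium handling and conduction genes held 12 vehicle-shared regions, of which 2 were members against 3.45 by rank and 7 were called in both Paro/Neo lists. These members lay inside the calcium channel subunit genes Cacna2d1 (folds 5.58 and 3.19) and Cacnb2 (3.68 and 4.63). Potassium channel genes held 10 regions and 2 members, against 2.29, close to the number by rank. One of these was at Kcne1, the accessory subunit of the slow delayed rectifier (6.22 and 4.71), and the other at Abcc9 (4.14 and 4.11). Hormone and adrenergic receptor genes held 12 regions and 2 members, at Pde4b and Adcy5, against 3.38. Both enzymes handle cyclic AMP, which Adcy5 makes and Pde4b breaks down. The calcium handling count stayed below its like-rank number with each Meis1 library left out in turn (3 to 10 members). The other counts of this paragraph did not. All 807 members stay in each of these settings too, so they are not independent counts. The hormone receptor count passed its like-rank number without Paro/Neo replicate 1 (7 against 5.97). The potassium channel count was level with or just above its own without vehicle replicate 2 (5 against 4.93) and without Paro/Neo replicate 2 (3 against 2.98).

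Among chromatin regulators 4 of 5 regions were members, against 2.12. They lay 591 bp outside Kmt2d, a histone H3K4 methyltransferase gene (folds 6.32 and 5.002), 2.69 kb outside Dot1l, the H3K79 methyltransferase (5.19 and 4.33), inside Dnmt3a, a DNA methyltransferase (4.63 and 4.54), and inside Tet1, a DNA demethylase (4.37 and 3.74). The start nearest to the Kmt2d region was that of another gene, Prkag1, 564 bp from the region's centre. At Dot1l the stronger region inside the gene, at a mean percentile of 99.7, was called in both Paro/Neo lists. Dot1l thus held both kinds of region. Without vehicle replicate 1 the chromatin regulator count was 7 of 10 regions, against 6.46, and with gene bodies alone it was 2 of 3, against 1.29. Circadian clock genes held 3 members of 6 regions, against 1.97, namely both Per2 regions and a region inside Hlf (4.55 and 7.22), an output factor of the clock. The stronger Per2 region, 1.58 kb outside Per2, is the one at Hes6 and is counted in the Notch and Wnt list too. The other clock regions, at Rora and Bhlhe41, were each in 1 Paro/Neo list.

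Signalling lists stood near their like-rank numbers. Calcineurin and CaMK genes held 3 members of 9 regions against 3.07, inside Ppp3ca, the calcineurin catalytic subunit (5.47 and 4.17), Rcan2, its regulator (5.29 and 4.23), and Camk2b (3.50 and 3.38). Notch and Wnt genes held 3 of 7, against 2.06, at Hes6 and at the Wnt effectors Tcf7l2 (folds 4.62 and 5.04) and Tcf7l1 (4.54 and 4.69). Insulin and ErbB signalling genes held 2 of 6, at Foxo3 and Egfr, against 2.86, and intercalated disc genes 2 of 8, at Ctnna3 and Jup, which link cell contacts to the cytoskeleton, against 2.33.

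Lists closest to Meis1 and the cell cycle gave few members. Of 4 regions at TALE homeobox genes 1 was a member, at Meis2 (mean percentile 37.5), against 1.10 by rank. Of 6 at cardiac transcription factor genes 1 was a member, 2.36 kb outside Gata4 (24.4), against 2.19. The CDK inhibitor list held a single vehicle-shared region, at Cdkn1b, and it was retained in 1 Paro/Neo list. The cell cycle driver, TGF-beta and ribosomal protein lists held no vehicle-shared region, hence no member. The Hippo pathway list held 1 region, a member inside Stk3.

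**Figure D4:**
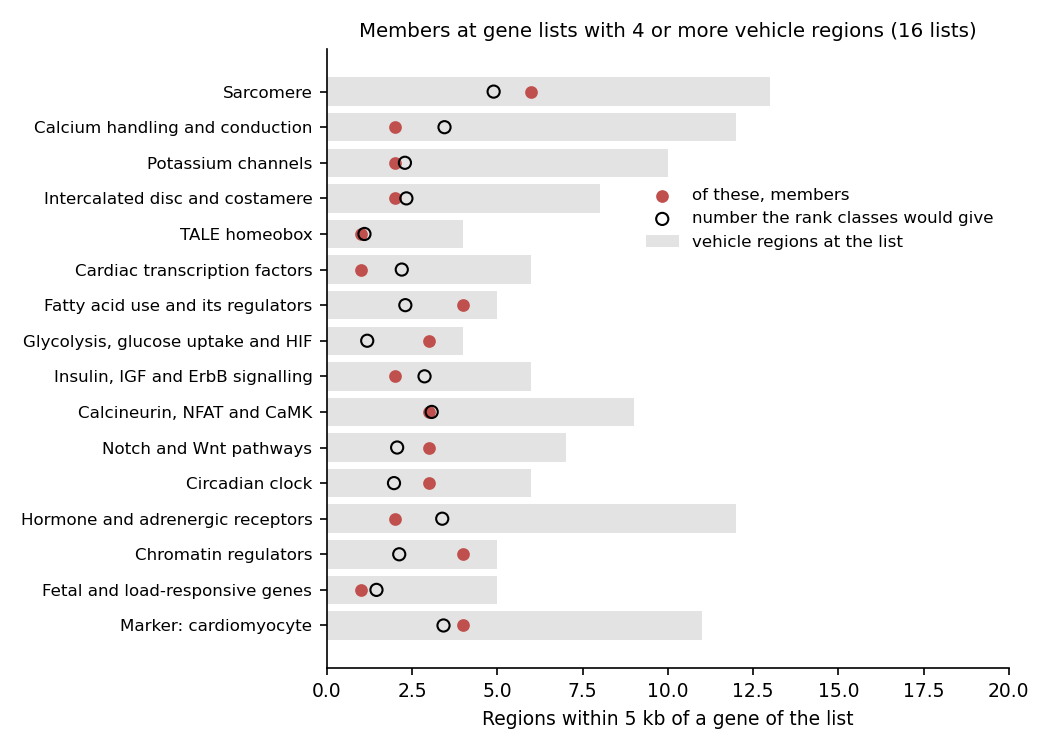
For 16 gene lists with at least 4 vehicle-shared Meis1 regions, the grey bar counts these regions within 5 kb of a list gene, the filled circle the members among them and the open circle the number the rank classes would give. Fatty acid use (4 of 5), glycolysis (3 of 4) and chromatin regulators (4 of 5) lie right of their open circles, and calcium handling (2 of 12) lies left.

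Cell type marker genes were counted in the same way, although peak lists hold no RNA and cannot check the tissue label by expression. Of 14 cardiomyocyte markers, 7 held a vehicle-shared region and 4 held a member: Mb (myoglobin, folds 7.91 and 5.46), Tnnt2, Myh6 and Ttn. Of 11 regions at these markers 4 were members, against 3.42 by rank. Fibroblast markers held 1 vehicle-shared region among 16 genes and endothelial markers 3 regions at 2 of 18 genes, none of them members. Smooth muscle, leukocyte and erythroid markers held no vehicle-shared region. By rank, the fibroblast markers would hold 0.043 members and the endothelial markers 0.39, so no difference from the rank classes can be read from the counts of 0.

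Peaks of Hoxb13, which the rule did not use, were listed less often at members than at retained regions weighted to like rank, a gap that narrowed in the first 3 lists without the weighting. In Hoxb13 vehicle replicate 1, 57 members held a peak (7.06%, 5.39 to 9.05), against 11.9% at like rank. In vehicle replicate 2 the number was 14 (1.73%, 0.952 to 2.89) against 4.98%, and in Paro/Neo replicate 1 it was 9 (1.12%, 0.511 to 2.11) against 3.90%. In Paro/Neo replicate 2, whose list is by far the longest, it was 287 (35.6%, 32.3 to 39.0) against 39.0%. The members' share was below the like-rank share in 4 of 4 libraries, but in Paro/Neo replicate 2 the like-rank value stood at the edge of the interval and the second rank class ran the other way (37.0% of members, 35.3% of retained regions). The like-rank values lean on the 147 retained regions of the weakest class, against 361 members there. Without weighting by rank, the retained shares were 8.73, 2.69, 2.04 and 40.0%, and the first 3 of these lie inside the members' intervals.

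The order of the Hoxb13 libraries followed the length of their lists, 5202, 1121, 821 and 16963 peaks. As shares on the log2 scale, the members' mean was 1.81 over the vehicle libraries and 2.65 over the Paro/Neo libraries, a difference of 0.85 (exact two-sided permutation p = 1 over 6 orders, smallest possible p = 0.333). Leaving out Paro/Neo replicate 2 turned the difference to −1.65, and leaving out vehicle replicate 2 turned it to −0.17. No Hoxb13 difference between the treatments at members was therefore detectable with these libraries. With a fixed 300 bp around each centre in place of the whole region, since retained regions are wider, the shares were 6.32, 1.49, 0.991 and 35.1% for members against 11.1, 4.92, 3.90 and 37.6% at like rank. Without retained regions ranked below the lowest member, which include the regions near Lrrc4c and Pex2 with a Hoxb13 peak in every list, the like-rank shares fell to 10.1, 3.25, 2.11 and 37.6%. Both settings were chosen after seeing the data, and kept the members lower in all 4 libraries.

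**Figure D5:**
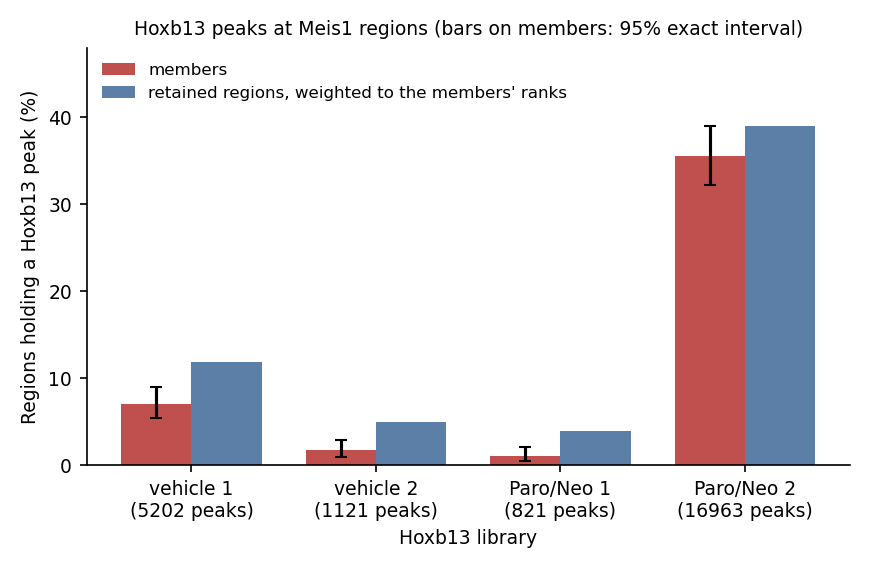
Bars give the percentage of members (with 95% exact binomial intervals) and of retained regions weighted to the members' ranks that hold a Hoxb13 peak, for each Hoxb13 library with its peak number. Members reach 7.06, 1.73, 1.12 and 35.6%, against 11.9, 4.98, 3.90 and 39.0%.

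Most members had no Hoxb13 peak at all, and the same was true of retained regions. None of the 4 Hoxb13 lists held a peak at 518 members (64.2%), against 731 of 1226 retained regions of any rank (59.6%). At members, 1 list held a peak in 234 cases, 2 in 40, 3 in 7 and all 4 in 8. Among the 15 members with a peak in at least 3 lists, the highest-ranked lay at Phf13, outside Ptpdc1, and at Tcf7l2, Cactin, Myh9 (nonmuscle myosin heavy chain), 1810013L24Rik and Osbp (an oxysterol-binding protein), with another 56.2 kb from Hes1, a Notch target. At the Tcf7l2 start (chr19:55741738-55741957) the Hoxb13 peaks stood at fold percentiles, within their own lists, of 97.8 (vehicle 1), 93.9 (vehicle 2), 51.0 (Paro/Neo 1) and 97.8 (Paro/Neo 2). At Osbp they were 98.3, 87.2, 50.5 and 99.3 in the same order. At Myh6 a Hoxb13 peak was present in vehicle replicate 1 (85.8) and Paro/Neo replicate 2 (99.9). At these 3 promoters Hoxb13 peaks were thus listed in both treatments, at Myh6 only in the longer list of each. Tcf7l2 and Osbp were named for their Hoxb13 peaks, and Meis1 peaks in vehicle alone follow from the rule. A contrast between the 2 factors at these promoters is therefore set by the selection.

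MicroRNA genes near members were few. Members had 11 listed hairpins within 10 kb, and retained regions had 15. The member near Ptpdc1 lay 7.68 to 9.84 kb from the let-7a-1, let-7f-1 and let-7d hairpins, a cluster of the let-7 family, and the Myh6 region lay 8.72 kb from Mir208b, which is hosted by Myh7. No value here says whether either region acts on these genes.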

How the data were processed

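Peak lists of 8 immunoprecipitated libraries out of 16 samples were used, and the inputs were not analysed here. Per the submitters' processing notes the authors worked on mm10 with Bowtie2, MACS2, HOMER, Picard 1.127 and FastQC 0.11.5; options and control of the caller are not given in the sources used. The lists are in broadPeak layout with 1 list per library. The fold of a peak is the authors' deposited ratio over background, ranked only within its list. Of the authors' deposited columns of −log10 p and −log10 q, the second was used only for a stricter setting (−log10 q of at least 2). The authors' deposited score column was not used for any result. No read totals come with the lists.

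Merging, ranking and counting used Python 3.11.15, numpy 2.4.6, pandas 2.3.3 and scipy 1.17.1 and were tested on simulated lists. Genes, starts and promoter windows came from RefSeq tables of GRCm38.p6; exon and intron were not assigned, and chromosome 18 had no promoter windows. Intervals are exact binomial (Clopper-Pearson) and cover counting error only. Rank classes are 4 equal groups of mean vehicle fold percentile.

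Members named in the text were the 12 of highest mean percentile, up to 4 genes of each list with at least 2 member genes, the genes with most members (up to 6), up to 8 members at gene ends, up to 8 with at least 3 Hoxb13 lists, and 4 each just inside and outside the rule; single genes of other lists, the retained regions and the microRNAs were named after their values were seen. Members and gene lists were chosen with earlier results of these data known. Some results that the naming rule selects are not reported here. The planned motif count in 200 bp around each centre was replaced by promoter windows. Alternatives tried were stricter q, equal list lengths, other overlap and merging rules, exchanged second replicates, each library left out, a replicate block, other gene assignments, other motifs and 10 rank classes.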

Additional observations from a re-analysis of the deposited data

How the results depend on the processing

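The 807 members became 731 with −log10 q of at least 2, 793 with an overlap of 50% of the shorter peak and 809 with peaks up to 200 bp apart merged. With each list cut to its strongest peaks, at the length of the shortest list, 83 regions fit the rule and 42 the reverse rule, and 62 of the 807 members (7.68%) were among the 83. With the second replicates exchanged between groups 34 fit it and 82 the reverse. Leaving out 1 Meis1 library at a time gave 978 to 2144 regions: 1819 without vehicle replicate 1, 2144 without vehicle replicate 2, 1253 without Paro/Neo replicate 1 and 978 without Paro/Neo replicate 2. The gene-end difference ran from −1.89 to 3.78 percentage points. The number of listed genes with a member ran from 59 to 119 (94 without vehicle replicate 1, 119 without vehicle replicate 2). The share of promoters with the core ran from 46.9 to 53.8%, and was 20.3% for TGACAGG and 6.76% for TGATTGA. The cause of these shifts was not tested.

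Replicate numbers pair no animals or days in the labels. Same-numbered Hoxb13 libraries deviated oppositely over the 807 members (r = −0.29). The longer list is that of replicate 1 in vehicle (5202 peaks) and of replicate 2 in Paro/Neo (16963 peaks). This r therefore cannot tell pairing from list length. The replicate block gave the Hoxb13 difference as 0.85 (exact permutation p = 1, smallest 0.5), and so did the crossed pairing, added after seeing the data (0.85, exact permutation p = 1). Without 1 Hoxb13 library the difference ran from −1.65 to 3.34; it reversed to −0.17 without vehicle replicate 2 (exact permutation p = 1) and to −1.65 without Paro/Neo replicate 2 (exact permutation p = 0.667). The motif count in 200 bp around each centre was not run, since no genome of the build was used here. Depth is unknown, so absence of a peak is limited by each list's own detection.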
